A study of Mus musculus with 24 samples.

Results

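Early carcinoma was compared with adenoma in the mammary tumors of PyMT mice: 3 libraries from week 10 against 3 libraries from week 8, which are 6 of the 24 samples of the series. They were chosen by their labels alone. PyMT mice were F1 females from FVB/N-Tg(MMTV-PyVT)634Mul/J males and FVB females, heterozygous for the polyoma middle T transgene. The mouse mammary tumor virus promoter drives this transgene in mammary epithelium. Week 8 is labelled adenoma/MIN (mammary intraepithelial neoplasia) and week 10 early carcinoma. Every mouse of both groups carried the transgene, so the 2 groups differ by age and stage, and these cannot be told apart within PyMT mice. Normal mammary glands of age-matched FVB females, 3 at each age, served to describe the same 2 weeks without the transgene. The PyMT libraries of week 6 (hyperplasia) and week 12 (late carcinoma) entered the fit to estimate the spread between mice. The tissue was collected from 3 mice per group and frozen, and its total RNA was read as counts per gene.

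Polyoma middle T is a membrane scaffold that recruits Src family kinases, Shc and PI3-kinase, and so feeds the MAPK and PI3K pathways that growth factor receptors such as the ERBB family use. In this model the lesions start inside the ducts, still lined by myoepithelial cells and basement membrane, and progress to carcinoma that has broken through that layer. RNA of bulk tissue mixes tumor epithelium with myoepithelial, fat, vascular, immune and, at times, muscle cells. In such samples fewer cells of a type and less RNA per cell cannot be told apart.

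The 6 libraries held between 7200680 and 12521904 reads counted to genes. Luminal epithelial markers were detected in both groups (15 of 15 genes), and the sum of their normalized counts (counts divided by a size factor of each library) lay between 29969 and 46498 at week 8 and between 30431 and 34601 at week 10. The transgene itself is not a gene of the mouse table and was not checked. The features of 3 single libraries have to be known before the comparison. PyMT week 10 replicate 3 was high in skeletal muscle genes, PyMT week 8 replicate 2 in interferon-stimulated genes, and PyMT week 8 replicate 1 in brown fat genes. In addition, counts came in packets in PyMT week 8 replicate 2 and PyMT week 10 replicate 2: the number of genes peaked at a count of 23 and of 15 rather than at the lowest counts, and 2.87% and 1.26% of 3799 genes of middle expression were at 0, against at most 0.0526% in the other 4 libraries. In the whole series 13 of the 24 libraries had such packets. Among them were all PyMT libraries of week 6 (packets of 14, 25 and 13) and PyMT week 12 replicate 1 (12). These also entered the fit. Dividing the counts of every library by its packet size left 0 genes called.

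The position of the 6 libraries did not follow their week. On the 500 most variable genes of the 12 PyMT libraries, the 9 distances between a week 8 and a week 10 library averaged 14.5, and the 6 distances within a week averaged 15.4. PyMT week 8 replicate 2 and PyMT week 10 replicate 3 lay farthest out. Of the 6 libraries, PyMT week 8 replicate 1 and PyMT week 10 replicate 3 had their nearest neighbour in their own week, and the other 4 had it in the other week.

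**Figure D1:**
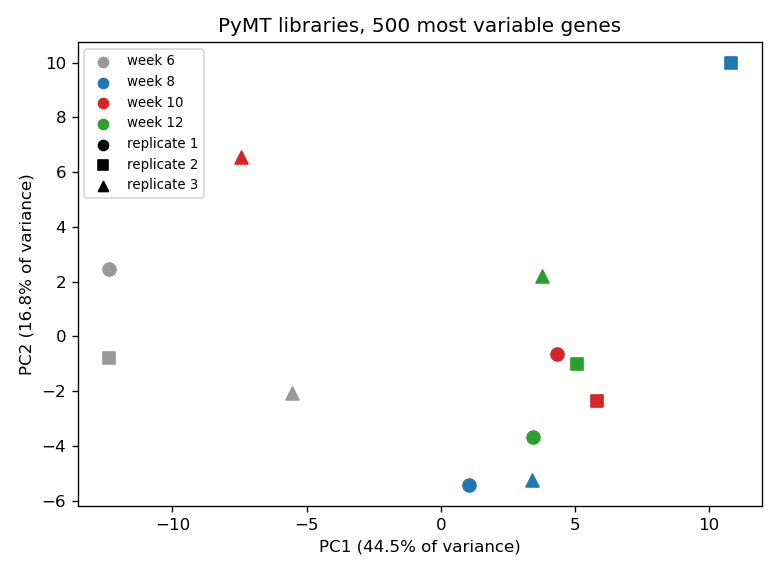
Principal components 1 (44.5% of the variance) and 2 (16.8%) of the 12 PyMT libraries on the 500 most variable genes, with colours for weeks and symbols for replicates. Week 8 replicate 2 (blue square) and week 10 replicate 3 (red triangle) lie away from the other 4 libraries of weeks 8 and 10, which lie close to each other and to week 12. Genes that weigh most on component 1 include the skeletal muscle genes Ttn, Acta1 and Neb and the milk protein gene Csn2. On component 2 they include 2310057J18Rik and Ttn.

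No gene passed the thresholds between week 10 and week 8 of PyMT mice. The quasi-likelihood test of edgeR found 0 higher (0%) and 0 lower (0%) among 14918 genes, at an adjusted p under 0.05 (Benjamini-Hochberg) and a fold change beyond 2. The smallest adjusted p was 0.9998. At an unadjusted p under 0.05 there were 313 genes (2.1%), of which 165 were higher (1.11%) and 148 lower (0.992%). DESeq2's Wald test called 5 genes higher and 0 lower, namely the skeletal muscle genes Neb, Ckm, Atp2a1, Acta1 and Ttn. The precision behind this was limited: the median standard error was 0.35 on the log2 scale, and the 95% interval of the median gene reached 0.75 to either side. In counts simulated from the mean and spread of each gene, the same test recovered 79% of genes changed 4-fold and 97% of genes changed 16-fold. Many well-expressed genes were changed at once there, which eases the adjustment, and no packets or single outlying libraries were simulated. These shares therefore do not tell how many such changes the test would have found in the real libraries. Without regard to a model, all 3 week 10 libraries were above all 3 week 8 libraries for 605 genes (4.06%), and below them for 658 genes (4.41%), 1263 genes in all (8.47%). An exact permutation test of 3 against 3 libraries cannot go below 0.1, so none was used for single genes. A share of 0.1 of all genes would also separate if the weeks did not differ, and the 8.47% lies below it. The lack of overlap alone therefore does not mark a gene as changed.

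Genes were taken by p, 12 in each direction, from those whose weeks did not overlap, whose log2 fold change was beyond 1 and whose normalized counts averaged 50 or more. Acta1 and Ckm, which DESeq2 called, overlapped between the weeks and were not taken. None of the 24 passed the test. The 12 with higher values at week 10 were Neb, Hras1, Casq1, Gm10800, Erbb4, Gm11168, Myom1, Serhl, Tbx15, 2810021J22Rik, Zfp595 and Ccdc23. The 12 with lower values were Sod3, Oas2, Igfbp2, Nlrc5, Clca5, Trim12c, Snx10, Ppp1r3b, Cspg4, Col17a1, Gm14088 and Klf4. Their log2 fold changes stayed beyond 1, whichever of the 6 libraries was left out, for 6 of the 12 higher genes and 5 of the 12 lower genes. The higher ones were Neb, Casq1, Gm10800, Erbb4, Gm11168 and Tbx15, and the lower ones Sod3, Oas2, Ppp1r3b, Col17a1 and Klf4. Neb (6065) and Casq1 (395) were by far highest in PyMT week 10 replicate 3, the library high in skeletal muscle genes. The counts of Gm10800 and Gm11168 are uncertain, as given below. For 7 of the 12 higher genes the value nearest 0 came from leaving out PyMT week 10 replicate 3, and for 6 of the 12 lower genes from leaving out PyMT week 8 replicate 2. The week 12 mean lay on the same side of week 8 for all 12 genes in each direction. All 3 week 12 libraries lay beyond week 8 for 6 of the 12 higher and 2 of the 12 lower genes. Week 8 values were part of the choice of these genes, so week 12 set against them is no independent support.

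**Figure D2:**
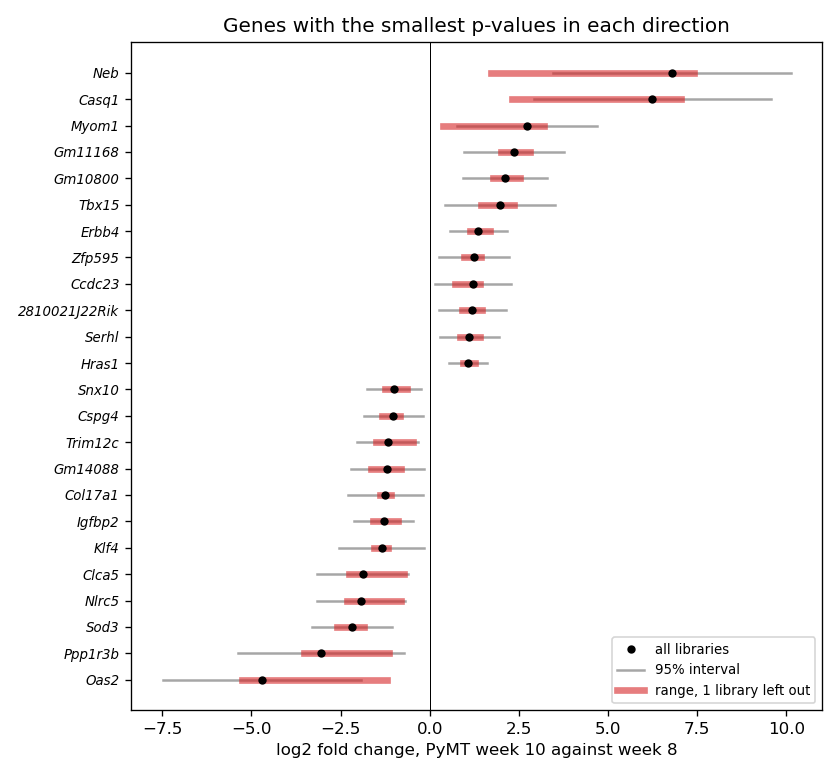
Log2 fold change of PyMT week 10 against week 8 for 24 genes, with the 95% interval (grey) and the range over fits that leave out 1 of the 6 libraries (red). They have the smallest p, 12 in each direction, among genes without overlap, with a log2 fold change beyond 1 and a mean normalized count of 50 or more. The red bars of Neb, Casq1, Myom1 and Oas2 are long, and those of Hras1, Erbb4, Sod3, Col17a1 and Klf4 are short; none of the 24 genes passed the test.

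Hras1, the mouse gene of the small GTPase H-Ras that relays receptor signals to MAPK, lies on the minus strand at chr7:148375004-148379904 (mm9). Its normalized counts were 852, 724 and 829 at week 8, and 1155, 1881 and 1970 at week 10. The lowest week 10 library was above the highest week 8 library. The log2 fold change was 1.07 (SE 0.25, 95% interval 0.53 to 1.61), with an unadjusted p of 0.000688 by edgeR's quasi-likelihood test and an adjusted p of 0.9998. Leaving out 1 library gave 0.93 to 1.28. At week 12 the counts were 803, 1271 and 1723, so that 1 late carcinoma was back within the range of week 8.

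Erbb4 encodes a receptor tyrosine kinase for neuregulins that serves alveolar differentiation in the gland, and lies on the minus strand at chr1:68078760-69154633 (mm9). Its normalized counts were 160, 71.3 and 113 at week 8, and 182, 332 and 366 at week 10. The groups did not overlap, though the lowest week 10 library stood just above the highest week 8 library. The log2 fold change was 1.37 (SE 0.37, 95% interval 0.57 to 2.16; unadjusted p = 0.00219, edgeR's quasi-likelihood test), and 1.12 to 1.69 with 1 library left out. Without both PyMT week 8 replicate 2 and PyMT week 10 replicate 3 it was 0.92. At week 6 the counts were 135, 256 and 153. At week 12 they were 403, 357 and 234, also above all 3 adenomas, whose values were part of the choice of this gene.

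The other ERBB receptors had other levels and smaller differences. Per length (RPKM, with the exon length of each gene), Erbb3 was the most abundant, with 48.1 ± 3.79 at week 8 and 48.9 ± 3.45 at week 10 (SD, n = 3). Egfr had 14.3 ± 1.2 and 15.7 ± 1.8, and Erbb2 15.0 ± 0.721 and 13.1 ± 0.591. Erbb4 was the least abundant of the 4 receptors, with 1.24 ± 0.487 and 3.13 ± 0.992. The week 10 values of Erbb2 were below all week 8 values in normalized counts too (558, 612 and 599 against 499, 496 and 554), with a log2 fold change of -0.17 (SE 0.29). Among the ligands, Areg had 0.954, 0 and 9.41 normalized counts at week 8 and 1.78, 97.5 and 5.12 at week 10. The Areg value of week 10 thus rests on PyMT week 10 replicate 2, a library with packets of 15 reads. Of the 12 ERBB receptors and ligands tested, 0 were called, 7 had a log2 fold change above 0, and the median was 0.028 (-0.13 to 0.36 with 1 library left out).

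Sod3, the extracellular superoxide dismutase, had the smallest p of the 12 lower genes (plus strand, chr5:52755185-52762644, mm9). Its normalized counts were 112, 154 and 149 at week 8 and 14.2, 46.1 and 29.9 at week 10. The highest week 10 library held less than every week 8 library. The log2 fold change was -2.19 (SE 0.52, 95% interval -3.30 to -1.07; unadjusted p = 0.000775, edgeR's quasi-likelihood test, adjusted p 0.9998), and -2.61 to -1.85 with 1 library left out. The week 12 counts of 41.1, 40.6 and 71.2 also lay below week 8, whose values were part of the choice of this gene. Those of week 6 (107, 117 and 77.2) lay above week 10 and overlapped week 8.

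Klf4 and Col17a1 are epithelial genes, a zinc finger transcription factor of differentiating epithelium and the hemidesmosomal collagen that ties basal cells to the basement membrane. Klf4 had 97.3, 143 and 120 normalized counts at week 8 and 47.2, 33.5 and 58.0 at week 10, a log2 fold change of -1.35 (SE 0.56). Col17a1 had 191, 263 and 296 at week 8 and 112, 79.6 and 119 at week 10, a log2 fold change of -1.25 (SE 0.49). In both genes every early carcinoma was below every adenoma, while 1 late carcinoma (117 for Klf4, 315 for Col17a1) reached the adenoma values. Cspg4, the NG2 proteoglycan of pericytes, had 205, 128 and 226 at week 8 and 81.0, 65.0 and 125 at week 10 (log2 fold change -1.03, SE 0.39). Igfbp2, a binding protein of insulin-like growth factors, had 168, 353 and 183 at week 8 and 84.5, 69.2 and 127 at week 10 (log2 fold change -1.30, SE 0.39, and -0.89 without PyMT week 8 replicate 2). In normal FVB glands Igfbp2 was also lower without overlap, with 71.9, 129 and 156 at week 8 and 12.9, 25.1 and 59.5 at week 10 (log2 fold change -1.90, SE 0.81).

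The higher group also held less studied genes. Zfp595 had 79.2, 45.9 and 73.5 normalized counts at week 8 and 107, 215 and 144 at week 10. Serhl, a serine hydrolase-like gene, had 113, 65.6 and 152 at week 8 and 211, 313 and 188 at week 10. In both the weeks did not overlap, with log2 fold changes of 1.24 (SE 0.46) and 1.11 (SE 0.39). For Gm10800 and Gm11168, predicted gene models whose reads can be shared with near-identical copies elsewhere, the counts are uncertain; Gm10800 had 411, 488 and 562 at week 8 and 2561, 700 and 2921 at week 10.

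**Figure D3:**
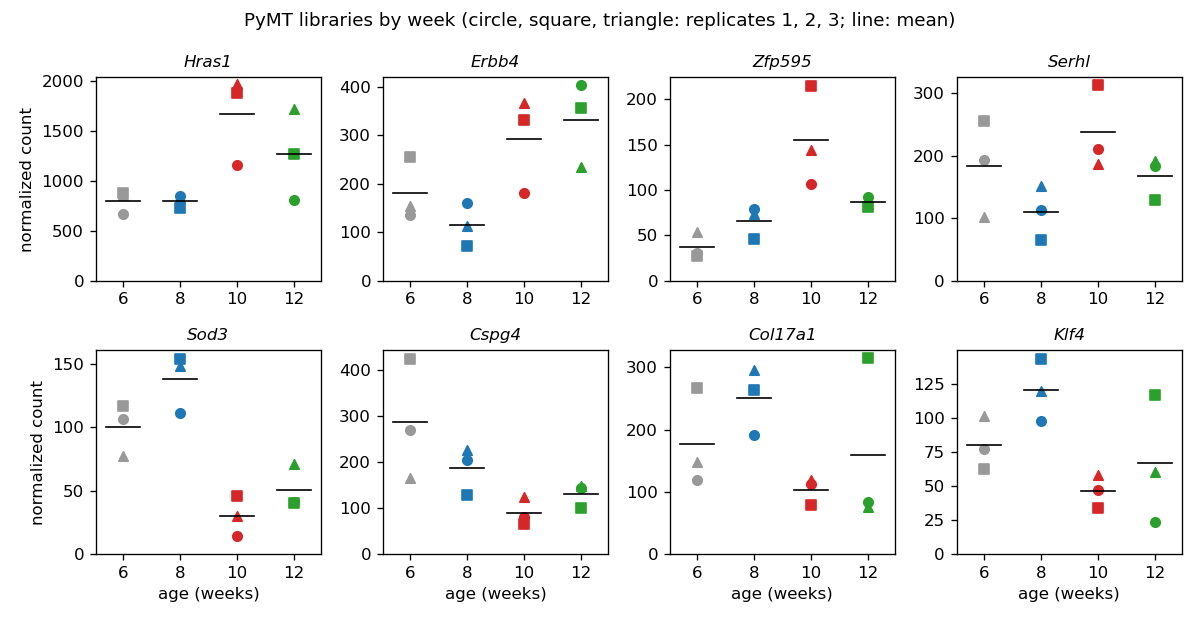
Normalized counts of 8 genes in the 12 PyMT libraries by age in weeks; symbols are replicates and lines are means of 3. Hras1, Erbb4, Zfp595 and Serhl are higher in all 3 week 10 libraries than in all 3 week 8 libraries, and Sod3, Cspg4, Col17a1 and Klf4 are lower; the spread at week 12 is wide for Hras1, Col17a1 and Klf4.

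Skeletal muscle genes were high in 1 early carcinoma library. Acta1, skeletal muscle actin, had 8.59, 6.56 and 11.2 normalized counts at week 8 and 56.1, 0 and 6109 at week 10. Ckm, the muscle creatine kinase, had 2.86, 3.75 and 3.53 at week 8 and 24.0, 0 and 2773 at week 10. Neb, the thin filament protein nebulin, had 17.2, 7.5 and 29.4 at week 8 and 56.9, 68.1 and 6065 at week 10. Of the 6 libraries, PyMT week 10 replicate 3 alone was high for these 3 genes. All 12 muscle markers tested had an unadjusted p under 0.05 in the higher direction (1.11% of all genes did) and 0 of 12 were called. Their median log2 fold change was 7.27, and 1.38 without PyMT week 10 replicate 3. The summed level of the list was 74.1 to 81.1 at week 8, and 0, 307 and 33539 at week 10, with 0 of the 12 markers at 0 in all libraries of either week. Such RNA was not confined to early carcinoma: the sum lay between 4682 and 37296 in the PyMT week 6 libraries, and reached 662561 in 1 FVB library of week 10.

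Interferon-stimulated genes were high in 1 adenoma library. Rsad2 (viperin, an antiviral enzyme) had 18.1, 961 and 18.8 normalized counts at week 8 and 33.8, 22.0 and 32.4 at week 10. Oas2, an oligoadenylate synthetase, had 48.7, 1271 and 27.6 at week 8 and 26.7, 0 and 22.2 at week 10. In each, PyMT week 8 replicate 2 was high, and the other 2 adenomas were near the early carcinomas. All 17 tested members of the list were highest in that library among the 6, by a median ratio of 14.4 to the median of the other 5, and 16 of 17 were highest there among all 12 PyMT libraries. An unadjusted p under 0.05 in the lower direction was found for 11 of 17 (0.992% of all genes), and 0 were called. The median log2 fold change was -2.14, and 0.07 without PyMT week 8 replicate 2. The log2 fold change of Rsad2 was -3.46 with that library and 0.68 without it. B2m, the light chain of class I molecules, followed the same library, with 1318, 6067 and 923 at week 8 and 1040, 808 and 1001 at week 10, and Nlrc5, which drives class I genes, had 151, 597 and 108 against 69.4, 72.3 and 79.3. Arg1 (372, 5128 and 194 at week 8, and 581, 510 and 313 at week 10) and the secretory receptor Pigr (827, 5953 and 518, and 1046, 750 and 887) were also high there, and the log2 fold changes of both had the opposite sign without that library.

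Sequences of 4 promoters are shown, of genes that were high in the same library. Only promoters that held the motif marked below could be shown. They are from RefSeq on GRCm38.p6, a build other than that of the counts, from 250 bases before to 50 bases after the start, read along the gene. Capitals mark GAAA, any 2 bases and GAAA again, on either strand, a core of the interferon-stimulated response element, with overlapping matches run together. The stretches are chr12:26456403-26456702 for Rsad2 (minus strand), chr4:156200769-156201068 for Isg15 (minus), chr5:120907476-120907775 for Oas1a (minus) and chr2:122147437-122147736 for B2m (plus).
Rsad2: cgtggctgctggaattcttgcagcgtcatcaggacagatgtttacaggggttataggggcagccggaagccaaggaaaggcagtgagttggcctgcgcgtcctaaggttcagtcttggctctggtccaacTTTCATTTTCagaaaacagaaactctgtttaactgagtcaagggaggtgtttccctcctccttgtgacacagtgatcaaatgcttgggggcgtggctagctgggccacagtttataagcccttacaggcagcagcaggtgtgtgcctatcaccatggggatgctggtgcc
Isg15: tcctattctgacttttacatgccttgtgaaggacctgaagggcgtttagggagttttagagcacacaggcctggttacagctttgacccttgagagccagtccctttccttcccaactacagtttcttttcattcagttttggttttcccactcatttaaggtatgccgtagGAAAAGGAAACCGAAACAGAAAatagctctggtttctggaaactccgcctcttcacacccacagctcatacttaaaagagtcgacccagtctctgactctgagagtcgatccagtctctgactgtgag
Oas1a: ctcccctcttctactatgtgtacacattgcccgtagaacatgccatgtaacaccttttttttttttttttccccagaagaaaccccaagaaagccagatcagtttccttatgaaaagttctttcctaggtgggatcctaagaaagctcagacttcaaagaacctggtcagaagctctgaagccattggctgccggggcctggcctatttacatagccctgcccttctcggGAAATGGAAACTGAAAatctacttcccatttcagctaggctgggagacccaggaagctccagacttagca
B2m: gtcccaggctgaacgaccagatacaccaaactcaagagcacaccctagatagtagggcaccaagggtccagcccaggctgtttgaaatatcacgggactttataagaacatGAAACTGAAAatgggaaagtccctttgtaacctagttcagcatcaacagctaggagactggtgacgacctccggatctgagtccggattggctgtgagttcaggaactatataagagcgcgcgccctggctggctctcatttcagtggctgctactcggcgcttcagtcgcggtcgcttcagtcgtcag
Of the 12 tested list members with a promoter in the table, 7 held this motif (58.3%), against 356 of 9621 tested symbols with a promoter (3.7%) and 1131 of all 32851 promoters (3.44%). The list was chosen as genes that respond to interferon, so its share of the motif says nothing about this library. These are matches of letters and no evidence of binding. Isg15 had 15.3, 248 and 8.82 normalized counts at week 8 and 24.0, 0 and 33.3 at week 10, and Oas1a had 64.9, 618 and 30 against 34.7, 41.9 and 53.7.

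**Figure D4:**
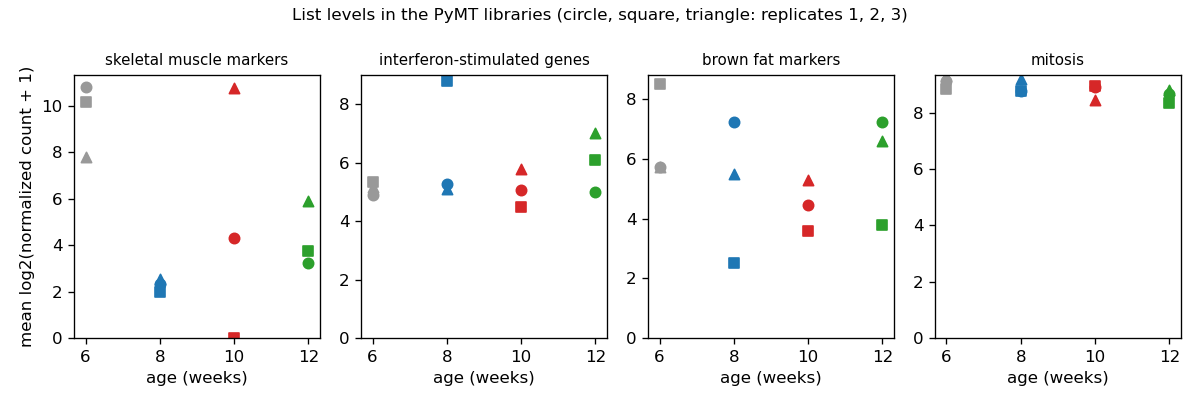
Mean log2(normalized count + 1) of 4 gene lists in the 12 PyMT libraries by age in weeks; symbols are replicates. Muscle markers reach 10.8 in week 10 replicate 3 and are high at week 6, interferon-stimulated genes reach 8.79 in week 8 replicate 2, brown fat markers vary within every week, and mitotic genes stay between 8.46 and 9.21 in the 6 libraries of weeks 8 and 10.

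Genes of cell division differed little between the stages. Of 25 mitotic genes tested, 0 were called, 5 had a log2 fold change above 0, and the median was -0.09, beside a median of -0.0045 over all genes. The mitotic median was 0.094 without PyMT week 10 replicate 3 and 0.053 without PyMT week 8 replicate 3. Mki67, the proliferation marker, had 4152, 3969 and 5415 normalized counts at week 8 and 4035, 4321 and 3377 at week 10. Cdk1, the mitotic kinase, had 502, 472 and 653 at week 8 and 601, 866 and 391 at week 10, and the groups overlapped. Its partner Ccnb2 had 229, 302 and 377 against 344, 133 and 229. Plk1, a mitotic kinase, had 186, 162 and 421 against 324, 371 and 249, and Aurkb, the kinase of the chromosomal passenger complex, had 251, 188 and 369 against 233, 342 and 192. Spag5, a spindle protein, had 332, 347 and 423 against 334, 469 and 238. The weeks overlapped in all 5 of these genes, with log2 fold changes between -0.34 and 0.30 and standard errors of 0.26 to 0.36. The paper followed these 5 genes by the ratio of PyMT to FVB at each stage, another measure. The log2 difference of the change between PyMT and FVB was 1.41 for Cdk1, 1.95 for Ccnb2 and 2.22 for Plk1. It was 1.61 for Aurkb and 1.87 for Spag5. The standard errors were 1.21 to 1.67, and none of the 5 passed. Of the 25 mitotic genes 2 had no overlap, Cdc20 and Ccna2, both lower at week 10 (4.41% of all genes were). Ccna2 had 1149, 1233 and 1346 at week 8 and 1110, 1019 and 750 at week 10 (log2 fold change -0.36, SE 0.17).

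Genes of DNA replication gave no call. Of 25 tested, 1 had a log2 fold change above 0 and the median was -0.23. The median was -0.036 without PyMT week 10 replicate 3, and reached -0.37 without PyMT week 8 replicate 1. Mcm6, a subunit of the replicative helicase, had 751, 1111 and 1025 at week 8 and 676, 767 and 539 at week 10 (log2 fold change -0.53, SE 0.20). Rrm2, a subunit of ribonucleotide reductase, had 756, 889 and 982 at week 8 and 779, 617 and 493 at week 10. Both overlap by 1 library. Cdkn2c, an inhibitor of CDK4 and CDK6, had 224, 357 and 236 at week 8 and 201, 182 and 154 at week 10, with no overlap and a log2 fold change of -0.59 (SE 0.26).

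Markers of the myoepithelial layer gave no call, and 3 of them did not overlap between the weeks. Of 14 basal and myoepithelial markers tested, 1 had a log2 fold change above 0, and the median was -0.61, with -0.27 without PyMT week 8 replicate 3 and -0.38 without PyMT week 10 replicate 3. None was called; 2 had an unadjusted p under 0.05 in the lower direction (0.992% of all genes), and 3 were below all adenomas (4.41% of all genes). Myh11, smooth muscle myosin, had 424, 428 and 491 at week 8 and 252, 182 and 218 at week 10 (log2 fold change -1.02, SE 0.47). Tagln, the actin-binding transgelin, had 167, 228 and 283 against 155, 81.7 and 93.0, and Oxtr, the oxytocin receptor, had 202, 164 and 239 against 140, 123 and 89.6. Keratins of the same cells overlapped: Krt14 had 593, 498 and 976 at week 8 and 558, 694 and 381 at week 10. The summed level of the list was 3141 to 5042 at week 8 and 2006 to 3096 at week 10. Smooth muscle of vessels also expresses Myh11 and Tagln, and the part of either cell type was not tested.

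Luminal and milk genes did not separate the stages. Of 15 luminal markers tested, 4 had a log2 fold change above 0, with a median of -0.21. That median was 0.15 without PyMT week 8 replicate 2, where Krt8 stood at 10531 against 4143 to 6017 in the other 5 libraries. Csn2, the milk protein beta-casein, had 2918, 127 and 2532 at week 8 and 3753, 966 and 6450 at week 10. Wap, the whey acidic protein, had 764, 273 and 769 against 939.5, 513.5 and 1441. In both the range within a week was wider than the difference of the weeks. Of 11 milk genes tested, 1 was above all adenomas (4.06% of all genes were) and 0 were below them. It was Xdh, xanthine dehydrogenase of the milk fat globule. Xdh had 5092, 5166 and 3734 at week 8 and 5789, 5399 and 5615 at week 10 (log2 fold change 0.28, SE 0.17). Esr1, the estrogen receptor, was lower without overlap, with 305, 270 and 247 at week 8 and 221, 210 and 212 at week 10, a log2 fold change of -0.34 (SE 0.26). Kit, a receptor of luminal progenitors, had 2246, 2316 and 2403 against 2237, 3543 and 3065.

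Stromal genes gave no call, and the signs of their medians were not stable when 1 library was left out. Of 24 collagen and matrix genes tested, 4 had a log2 fold change above 0 (median -0.20); of 12 fibroblast markers 5 did (median -0.01), and of 12 endothelial markers 2 (median -0.28). Without PyMT week 8 replicate 3 the medians of these 3 lists were 0.13, 0.27 and 0.19. The fibroblast median, near 0 with all libraries, had the opposite sign in 4 of the fits with 1 library left out. Col4a1, a chain of basement membrane collagen, had 3212, 2938 and 5237 at week 8 and 2786, 2950 and 2393 at week 10. Timp3, a matrix-bound inhibitor of metalloproteases, had 983, 1035 and 1299 at week 8 and 750, 741 and 634 at week 10, with no overlap (log2 fold change -0.63, SE 0.26). Zeb2, a transcription factor of mesenchymal cells, had 716, 551 and 960 at week 8 and 478, 531 and 479 at week 10 (log2 fold change -0.57, SE 0.24). Cldn5, the tight junction protein of endothelium, had 41.0, 52.5 and 53.5 against 19.6, 19.9 and 7.68 (log2 fold change -1.62, SE 1.03). Vegfa, the endothelial growth factor, had 414, 648 and 469 against 345, 219 and 331, also with no overlap (log2 fold change -0.75, SE 0.32). The summed endothelial markers overlapped, with 1107 to 3136 at week 8 and 1583 to 1958 at week 10.

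Fat markers varied more between adenomas than between the stages. All 15 adipocyte markers tested had a log2 fold change below 0, with a median of -0.38; 0 were called and 0 had an unadjusted p under 0.05. The median was 0.13 without PyMT week 8 replicate 1 and -0.95 without PyMT week 10 replicate 2, the highest and lowest values with 1 library left out. Adipoq, the fat cell hormone adiponectin, had 688, 45.9 and 365 at week 8 and 167, 325 and 177 at week 10. The summed level of the list was 4258, 15246 and 24403 at week 8 in ascending order, and between 6965 and 15864 at week 10, so the lowest and the highest library were both adenomas. Ucp1, the uncoupling protein of brown fat, had 925, 2.81 and 122 at week 8 and 4.45, 14.7 and 67.4 at week 10. Elovl3, a fatty acid elongase of brown fat, had 91.6, 0 and 6.47 at week 8 and 0 counts in all 3 week 10 libraries, while week 8 rests on replicate 1 (a mean of 32.7 with it and 3.23 without it), so no fold is given. PyMT week 8 replicate 1 was the highest of the 6 libraries for 7 of 9 brown fat markers and 13 of 15 adipocyte markers. Ppp1r3b, which targets phosphatase 1 to glycogen, followed it, with 271, 25.3 and 33.5 against 17.8, 6.29 and 14.5. Dgat2, the last enzyme of triglyceride synthesis, had 1987, 293 and 500 at week 8 and 237, 376 and 368 at week 10. The summed brown fat markers were 300 to 2052 at week 8 and 307 to 525 at week 10, with 2 of 10 markers at 0 in all week 10 libraries. The part of fat in these values was not tested.

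Lipid synthesis genes, which fat cells and epithelium share, gave no call. All 11 cholesterol synthesis genes tested had a log2 fold change below 0 (median -0.52, and -0.21 without PyMT week 10 replicate 3), with 2 at an unadjusted p under 0.05. Insig1, the sterol sensor that holds SREBP in the endoplasmic reticulum, had 457, 533 and 396 at week 8 and 417, 174 and 161 at week 10 (log2 fold change -0.86, SE 0.32). Fdft1, squalene synthase, was below all adenomas, with 245, 284 and 229 against 182, 197 and 142. Srebf1, the driver of fatty acid synthesis, had 13803, 5333 and 8861 at week 8 and 13578, 12127 and 17283 at week 10 (log2 fold change 0.63, SE 0.27). Without PyMT week 8 replicate 2 it was 0.35, and 0.19 without both that library and PyMT week 10 replicate 3. Of the 12 fatty acid synthesis genes tested, 10 had a log2 fold change below 0, with a median of -0.35 that became 0.092 without PyMT week 8 replicate 1.

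Immune cell markers showed no call. Of 15 macrophage markers tested, 2 had a log2 fold change above 0 (median -0.27), and 3 were below all adenomas (4.41% of all genes). Csf1r, the receptor on which macrophages depend, had 815, 922 and 890 at week 8 and 645, 551 and 702 at week 10 (log2 fold change -0.45, SE 0.24). C1qa, a complement chain made by macrophages, had 630, 695 and 660 against 611, 482 and 595, and Adgre1 (F4/80) 294, 302 and 253 against 243, 225 and 218. The summed level was 6249 to 11358 at week 8 and 5740 to 5869 at week 10, and Arg1 made up 5128 of the 11358 in PyMT week 8 replicate 2. Of 17 B and T cell markers, 3 passed the filter on low counts, and their sum stayed between 64.1 and 155 in all 6 libraries. Among chemokines, Cxcl1, which draws neutrophils, had 32.4, 79.7 and 30 at week 8 and 1.78, 10.5 and 10.2 at week 10. Cxcl16 had 177, 406 and 206 against 136, 171 and 167. Neither passed the test. Schwann cell markers had 9 of 9 log2 fold changes above 0 with a median of 0.20, and 0.02 without PyMT week 8 replicate 2 and PyMT week 10 replicate 3.

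Signaling lists gave single genes without overlap: 1 of 17 Wnt genes and 1 of 16 TGF-beta and BMP genes tested. Both were below all adenomas, as 4.41% of all genes were. Axin2, a feedback target of Wnt signaling, had 48.7, 91.0 and 68.8 normalized counts at week 8 and 20.5, 13.6 and 25.6 at week 10 (log2 fold change -1.77, SE 0.90). Id1, a target of BMP signaling, had 53.4, 44.1 and 62.4 against 36.5, 15.7 and 25.6 (log2 fold change -1.02, SE 0.74). Per2, of the circadian clock, had 247, 222 and 197 against 162, 415 and 780.5, which overlap, and Cry1 had 157, 109 and 168 against 198, 191 and 217, which do not. Over the 35 lists, 454 different genes were tested: 0 were called, 6 were above all adenomas (1.32%, beside 4.06% of all genes) and 27 were below them (5.95%, beside 4.41%). For 22 of the 35 lists the median had the opposite sign when 1 of the 6 libraries was left out.

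**Figure D5:**
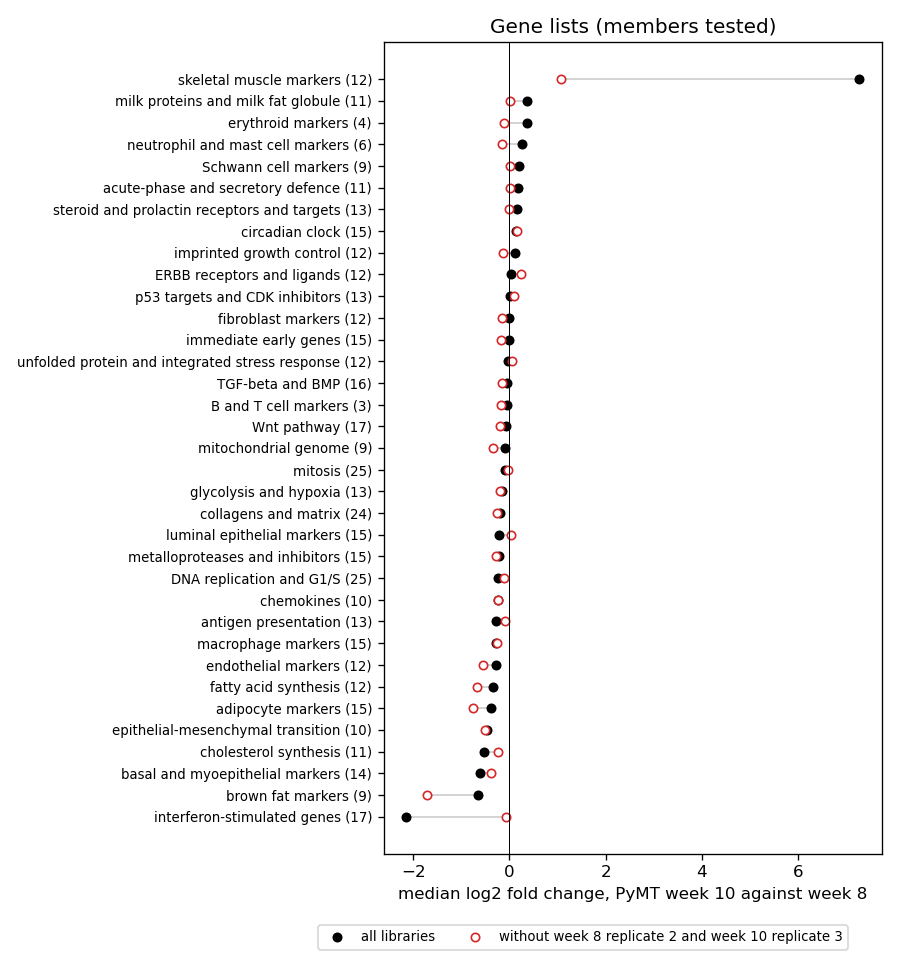
Median log2 fold change of PyMT week 10 against week 8 over the tested members of 35 gene lists (number in brackets), with all libraries (black) and without week 8 replicate 2 and week 10 replicate 3 (red circles). The muscle median moves from 7.27 to 1.08 and the interferon median from -2.14 to -0.07, and the other 33 lists lie between -1.71 and 0.36 in either setting.

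In FVB glands the same 2 weeks gave no call by edgeR's quasi-likelihood test either: 0 genes were higher (0%) and 0 lower (0%), with 668 genes (4.48%) at an unadjusted p under 0.05 and a smallest adjusted p of 0.667. All 3 week 10 libraries were above all week 8 libraries in 511 genes (3.43%) and below them in 686 (4.6%). The change in PyMT mice differed from that in FVB mice for 1 gene of 14918 (0.0067%), Trip13, and for 0 after division of the counts by packet size, an alternative chosen after the data were seen. It differed for 533 genes (3.57%) at an unadjusted p under 0.05. Hras1 had 245, 126 and 185 normalized counts in FVB at week 8 and 254, 197 and 283 at week 10, all below every PyMT library of these weeks. Sod3 had 657, 480 and 869 against 765, 710 and 526 in FVB, several times the PyMT levels, with overlapping weeks. For Sod3 the test of the difference gave a log2 difference of -2.19 (SE 0.53) with an adjusted p of 0.927 by edgeR. Erbb4 had 16.4, 191 and 189 in FVB at week 8 and 91.3, 79.2 and 0 at week 10, and the difference from PyMT did not pass (adjusted p 0.9998 by edgeR). Mitotic genes had a median log2 fold change of -0.91 in FVB against -0.09 in PyMT, in glands whose counts of these genes were low: Cdk1 had 0, 107 and 220 at week 8 and 22.3, 116 and 0 at week 10. The muscle list had a median of 7.90 in FVB, where Acta1 stood at 108267 in FVB week 10 replicate 3 and at 63.2 and 114 in the other 2. The part of muscle in the FVB comparison was not tested beyond these values.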

How the data were processed

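Total RNA of frozen mammary tissue was measured by RNA-seq of rRNA-depleted, directional libraries in 3 PyMT and 3 FVB females at each of 4 ages, 24 libraries in all. The deposited counts are whole reads per gene, which the authors made by trimming adapters, aligning to mm9 with GSNAP and counting with HTSeq. The strand setting of the counting and the release of the annotation are not given in the sources used here, so reads of overlapping and antisense genes may not be separated. Groups were taken from the labels. Whether same-numbered samples were handled together is not stated, and the comparison was run unpaired.

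The week 10 against week 8 contrast was fitted with edgeR 4.0.16 (R 4.3.3; TMM factors, quasi-likelihood test) to the 12 PyMT libraries in 4 week groups, over the 14918 of 37991 genes that reached a CPM of 1 in at least 12 of the 24 libraries. Called genes had a fold change beyond 2 and, after Benjamini-Hochberg adjustment, a p under 0.05. FVB was fitted alike, and the difference between PyMT and FVB in all 24 libraries with 8 groups. Printed counts are divided by the size factors of DESeq2 1.42.0. Levels on the log2 scale have 1 added. The PyMT libraries of week 8 were compared gene by gene with each other, as were those of week 10, and none was a repeat of another. Other pairs of libraries were not compared. Coordinates are from gene models on mm9 (GENCODE M1), which were found for 37205 IDs, and promoters from RefSeq on GRCm38.p6. The fit was tested on simulated data before use.

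Genes were named if their log2 fold change was beyond 1, their mean normalized count was 50 or more and the weeks did not overlap, 12 in each direction by p. Also named were the 2 members with the smallest p in each of 35 gene lists, 7 genes that the study follows between these stages (Erbb4, Erbb2, Cdk1, Ccnb2, Plk1, Aurkb and Spag5) and the 3 genes with the smallest p for the difference between PyMT and FVB. Other genes given as examples of a list or a library were chosen after their values were seen. Of 518 list entries, 517 were matched by symbol. The members and the lists were chosen with earlier results of these data known. Calls were repeated under 18 alternative settings, among them DESeq2, limma 3.58.1 (voom with sample quality weights), other filters and scalings, and leaving out each library. P-values measure the spread between mice. Depth is the total of reads counted to genes, and no interval for counting error alone is given.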

Additional observations from a re-analysis of the deposited data

Results flagged for a closer look

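Trip13, an ATPase that acts on meiotic and spindle checkpoint proteins, was the 1 gene whose change from week 8 to week 10 differed between PyMT and FVB mice by the test of the difference (edgeR's quasi-likelihood test, adjusted p = 0.0126). The fitted log2 difference was 8.43 (SE 1.18). Its normalized counts were 142, 63.8 and 162 at week 8 and 141, 103 and 83.6 at week 10 in PyMT mice, where the weeks overlapped. In FVB mice they were 49.2, 29.1 and 62.1 at week 8 and 0 in all 3 libraries of week 10. The 3 FVB week 10 libraries had counts in packets of 12, 13 and 19 reads. A floor of 3 packets per library averages 51.4 normalized counts, above the FVB week 8 mean of 46.8, so no fold is given for FVB and the fitted value is no bound. With counts divided by packet size, an alternative chosen after the data were seen, the log2 difference was 7.41 and did not pass (adjusted p = 0.9999 by edgeR). Acox2 (log2 difference 7.20) and Fam64a (8.71) came next and did not pass, both with an adjusted p of 0.366 by edgeR; both were at 0 in the FVB libraries of week 10.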

How the results depend on the processing

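The PyMT comparison gave 0 calls in each direction under 16 of the 18 alternatives, with unadjusted counts of 183 to 522 when 1 library was left out, 275 with the replicate block and 500 after division by packet size. The exceptions were DESeq2, with 5 higher and 0 lower, and no filter on low counts, with 60 higher and 39 lower of 24156 genes. Without the filter the total degrees of freedom of a gene, the prior included, were at most 193248. With the filter their median was 15.41. Of the 60 higher genes found without the filter, 58 were highest in PyMT week 10 replicate 3. Of the 39 lower genes, 27 were highest in PyMT week 8 replicate 2. Of the 35 gene lists, 1 held a called gene with DESeq2 and 11 without the filter. In FVB DESeq2 called 2 higher and 18 lower. For the difference between PyMT and FVB it called 6 higher and 1 lower, and leaving out 1 library gave 1 to 10 higher genes, with 10 without FVB week 10 replicate 1 and 2 without replicate 2. Division by packet size, added after the data were seen for this comparison, gave 0 higher and 0 lower, and Trip13 no longer passed. The cause of these changes was not tested. The block on replicate numbers changed no call. The deviations of same-numbered samples from their group means had correlations of 0.0158, 0.0981 and 0.0561. Differently numbered samples had -0.098 to 0.0888. Such correlations over all genes cannot tell whether the numbers pair the samples. Of the 313 genes at an unadjusted p under 0.05, 112 (35.8%) remained without PyMT week 8 replicate 2, 144 (46%) without PyMT week 10 replicate 3 and 63 (20.1%) without both.

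Some log2 fold changes, none of them past the threshold, had the opposite sign under an alternative. With voom and quality weights Arg1 was 0.39, Rsad2 0.37, Pigr 0.25, Cdk1 -0.064 and Fam64a -0.24. With division by packet size Mcpt4 was -0.59 and Fam64a -0.13, and with the replicate block Aurkb was 0.034. With 1 library, or both doubtful libraries, left out, the log2 fold changes ranged from -0.060 to 1.01 for Wap, -0.033 to 5.88 for Areg, -0.50 to 0.26 for Col1a1, -2.53 to 0.96 for Arg1, -0.28 to 1.24 for Cd4, -0.13 to 1.59 for Csf3r, -0.34 to 2.17 for Mcpt4, -0.23 to 0.98 for Hba-a1, -4.02 to 0.68 for Rsad2, -1.89 to 0.43 for Pigr, -0.45 to 0.13 for mt-Nd2, -0.10 to 0.44 for Cdk1, -0.32 to 0.23 for Aurkb, -0.33 to 0.14 for Spag5, -0.47 to 0.094 for Trip13, -0.12 to 0.42 for Acox2 and -0.15 to 0.48 for Fam64a. Of 1849 gene values recomputed, 38 had the opposite sign, 29 newly passed the threshold and 1, Trip13, lost its call. Of 630 list medians recomputed, 47 had the opposite sign. The cause was not tested.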

Other observations

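Single libraries held further genes far above the other 5 of weeks 8 and 10. PyMT week 8 replicate 1 had 8 genes, of a normalized count of 100 or more, at over 4 times the highest of the others, among them Cidea, a lipid droplet protein of brown fat (387 against at most 78.6), Cdo1, which degrades cysteine (595 against 141), and Acot11, a thioesterase of brown fat (395 against 95.6). PyMT week 8 replicate 2 had 49 such genes, of which 12 were on the interferon list, and the predicted gene 2310057J18Rik stood at 32926 against at most 1008. Irf7, a transcription factor of the interferon response, had 1378 there against at most 153, and Bst2, which tethers budding virus, had 551 against 58.7. PyMT week 10 replicate 2 had 4 such genes, with 154 against 16.9 for Zfp385b and 177 against 32.3 for Nrk. Of 13 antigen presentation genes tested, 9 were highest in PyMT week 8 replicate 2.

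Without PyMT week 8 replicate 2 and PyMT week 10 replicate 3 the genes with the smallest p were Ehd2, an ATPase of caveolae (log2 fold change -1.25), Npr3, the clearance receptor of natriuretic peptides (-2.09), and Chn2, a GTPase-activating protein for Rac (1.57). All had an adjusted p of 0.9998 by edgeR, so none passed.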
